A study of Mus musculus with 6 samples.

Results

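The 8 genes described here encode receptors and ligands of the GDNF (glial cell line-derived neurotrophic factor) family: the co-receptors Gfra1, Gfra2, Gfra3 and Gfra4, the receptor tyrosine kinase Ret, and the ligands Nrtn, Gdnf and Artn. They were taken by gene symbol from a deposited table of 22381 genes, and each symbol stood on 1 line. RNA sequencing had been done on LSK cells, the bone marrow fraction without mature lineage markers and with Sca-1 and c-Kit, in which blood stem cells and early multipotent progenitors are found. The mice were C57BL/6 and 8 to 12 weeks old, and the labels give 3 samples as Tgif1-/- and 3 as WT (wild type). Tgif1 encodes a homeodomain repressor of transcription. Which part of Tgif1 was removed, and whether the WT mice were littermates, was not stated in the labels, and they do not say whether a group's samples are separate animals, so the spread behind the authors' p-values may be technical. The table holds 1 FPKM value per gene for each group (fragments per kilobase of transcript against the mapped total), so no value of a single sample, no SD and no depth could be read.

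Ligands of the GDNF family dimerise and bind a GFR-alpha protein, which is held to the outer membrane by a lipid (GPI) anchor and has no signalling part of its own. The pair then engages Ret, whose kinase signals through docking proteins to the MAP kinase, PI3 kinase and phospholipase C pathways. Each co-receptor has a preferred ligand: GDNF for GFR-alpha of Gfra1, neurturin for that of Gfra2, artemin for that of Gfra3 and persephin for that of Gfra4. The family is best known from enteric neurons, motor and sensory neurons and the budding kidney, and Ret has also been described on blood stem cells, where Bcl2 and Bcl2l1 act downstream of it.

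Gfra2 and Gfra1 were lower in the group labelled Tgif1-/-, while Ret and the ligands were close to 0 or listed at 0 in both groups. Gfra2 went from 3.96 FPKM (labelled WT) to 1.54 FPKM (labelled Tgif1-/-), and Gfra1 from 2.11 to 0.839 FPKM. In the authors' deposited table, 3 of the 8 genes had enough reads to be tested by Cuffdiff, and 2 of these were called lower (status tested and q, the p-value adjusted for multiple testing, at or under 0.05) and 0 higher. Over all 10730 tested genes 0.373% were called lower and 0.289% higher, 0.662% in all. At an unadjusted Cuffdiff p under 0.05, 381 of the 10730 were lower and 199 higher. The family was chosen by the deposited FPKM values and q of this same comparison, in which Gfra2 was already known to be lower. These counts and q values are therefore a description and no independent evidence about the family.

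Tgif1 itself was at 88.6 FPKM under the Tgif1-/- label, no lower than its 71.5 FPKM under the WT label, and its Cuffdiff test is marked as failed. Loss of only a part of the gene need not show in such a value, but whether this holds here was not tested. The value therefore cannot serve as a check of the labels, and each direction is one between groups as labelled. All 7 markers of LSK cells looked for were present at 1 FPKM or more, among them Kit at 193 and 202 FPKM and Ly6a, which encodes Sca-1, at 120 and 88.9 FPKM (group labelled Tgif1-/- first, as in every pair of values from here on). Of 9 markers of lineages that the gate should remove, 6 also reached 1 FPKM in a group, the highest being Itgam at 35.4 and 34.0 FPKM, and Cd3e, Cd8a and Ms4a1 stayed below 1 FPKM.

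Promoter sequence is shown for the tested co-receptors that the RefSeq promoter table (GRCm38.p6) holds, because the Tgif1 protein binds DNA at a TGTCA core. That table had 5 of the 8 genes; Gfra2, Gfra3 and Ret were not among them. The stretches run up to the base before the transcription start on the minus strand, and capitals mark TGTCA or TGACA, the same motif on the other strand. For Gfra4 the stretch is 250 bases, chr2:131043089-131043338. For Gfra1 it is the 62 bases next to the start that no annotated exon overlaps, chr19:58455399-58455460.
Gfra4: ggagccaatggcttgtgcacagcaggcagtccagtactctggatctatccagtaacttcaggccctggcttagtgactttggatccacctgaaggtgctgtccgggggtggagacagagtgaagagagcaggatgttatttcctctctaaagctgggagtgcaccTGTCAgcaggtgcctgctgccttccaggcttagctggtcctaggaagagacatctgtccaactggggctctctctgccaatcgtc
Gfra1: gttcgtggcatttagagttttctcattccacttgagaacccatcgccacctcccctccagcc
The Gfra4 stretch held 1 match, a further listed start of Gfra4 had 0 in its 250 bases, and the 250 bases before the start of Gfra1 held 0. Of 32851 windows of 250 bases in the table, 40.0% held at least 1 match, so the match of Gfra4 is a description of its letters and no sign of binding.

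**Figure D1:**
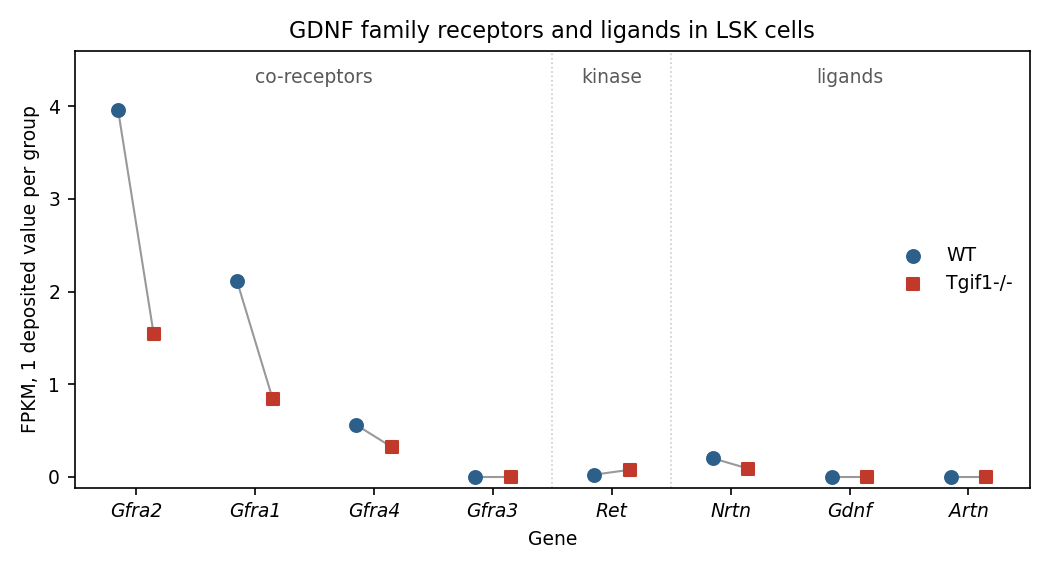
Deposited FPKM of the 8 genes (vertical axis, linear) in the group labelled WT (circles) and the group labelled Tgif1-/- (squares), 1 value per group and gene with no error, ordered by role along the horizontal axis. Gfra2 and Gfra1 fall from 3.96 to 1.54 and from 2.11 to 0.839 FPKM, and Ret, Nrtn, Gdnf, Artn and Gfra3 lie at 0.199 FPKM or less.

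Among the co-receptors, Gfra2, the neurturin receptor (ENSMUSG00000022103, chromosome 14, 71289927 to 71379645 in the table, a mouse build that no source used here names), had the highest level of the 8 genes in each group. Its values of 1.54 and 3.96 FPKM give a 2.58-fold lower level in the group labelled Tgif1-/-, a log2 ratio of -1.37. The standard error implied by the authors' test statistic was 0.20, which corresponds to a 95% interval of 1.96-fold to 3.39-fold lower, and the Cuffdiff q in the authors' deposited table was 1.53e-08. That error belongs to the authors' model and is not a spread measured here between samples. By q, Gfra2 was at place 10 among the 71 called genes.

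Gfra1, the GDNF receptor (ENSMUSG00000025089, chromosome 19, 58310094 to 58530399 in the table), was second in level in each group. Its values of 0.839 and 2.11 FPKM give a 2.52-fold lower level in the group labelled Tgif1-/-, or -1.33 as a log2 ratio. Its implied standard error was 0.33, with a 95% interval of 1.61-fold to 3.94-fold lower. The Cuffdiff q of Gfra1 in the authors' deposited table was 0.0131, at place 47 of the 71 called genes. Gfra1 and Gfra2 were lower by like amounts: their log2 ratios differed by -0.03 (Gfra2 minus Gfra1), with a standard error of 0.39 if their errors are independent. The level of Gfra1 was therefore 0.546 times that of Gfra2 in the group labelled Tgif1-/- and 0.533 times in the group labelled WT.

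Gfra4, the persephin receptor, came next in level, at 0.321 and 0.562 FPKM. Its log2 ratio of -0.81 had an implied standard error of 0.77, its 95% interval ran from 0.615-fold to 4.98-fold lower, and it was not called (Cuffdiff p = 0.294 in the authors' deposited table). The interval includes both no difference and the differences of Gfra1 and Gfra2. Gfra3, the artemin receptor, was listed at 0 in both groups. Added up, the co-receptors stood at 2.70 and 6.63 FPKM, of which Gfra2 made 57.0% and 59.7% and Gfra1 31.1% and 31.8%. As listed, the shares of the summed co-receptor RNA were thus nearly alike in the groups while the sum differed. No error was computed for the shares or the sums.

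**Figure D2:**
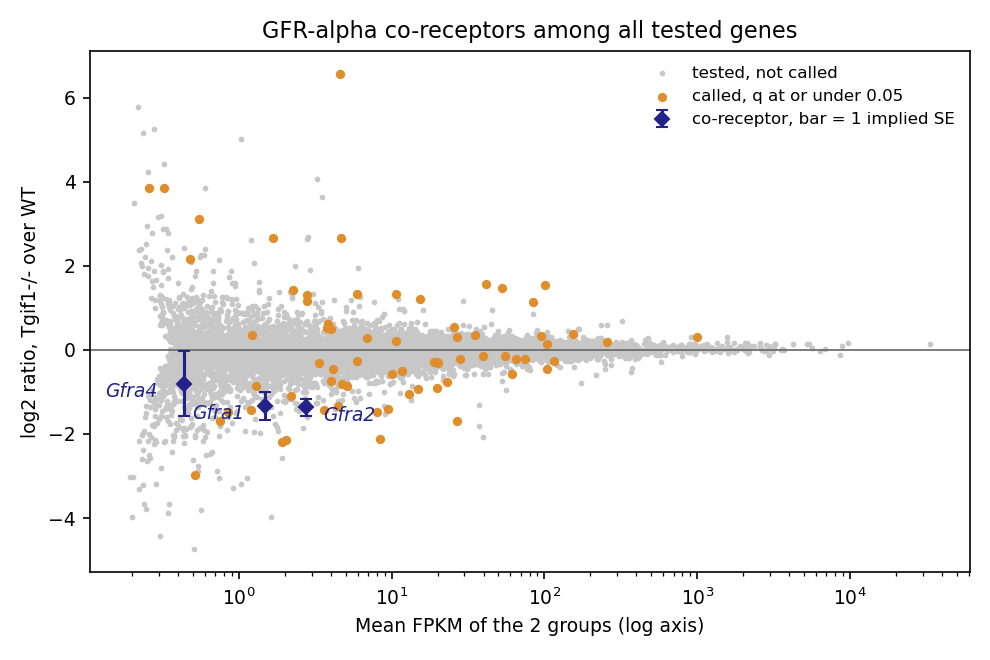
Log2 ratio, Tgif1-/- label over WT label, (vertical axis) against mean FPKM of the groups (horizontal log axis) for tested genes with values above 0 in both groups, with called genes in orange and the co-receptors as diamonds with 1 implied standard error. Gfra2 and Gfra1 lie at -1.37 and -1.33 in the lower part of the expression range, and the error bar of Gfra4 is the longest of the 3.

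The errors implied for Gfra2 and Gfra1 were small for genes at their levels, and their calls rest on this. When tested genes were put in 20 bins by mean FPKM, the bin of Gfra2 had a median implied standard error of 0.37 against 0.20 for Gfra2, and 36 of its 535 genes had a smaller one. The bin of Gfra1 had a median of 0.48 against 0.33 for Gfra1, with 57 of 535 genes below it. When no error was allowed below the median of its bin, the adjusted p of Gfra2 was 0.104 and that of Gfra1 was 0.808, so neither was called. Such a floor can only raise errors, and under it 0.0932% of tested genes were called lower.

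The 5 tested genes nearest to Gfra2 in mean level and log2 ratio were Wfdc2, Gpatch3, 1700026L06Rik, Gm1673 and Eps8l2, a likeness over 2 group values and nothing more. Wfdc2 was nearest, at 1.47 and 3.68 FPKM. Their log2 ratios lay between -1.46 and -1.25, but their implied standard errors ran from 0.56 to 0.81, against 0.20 for Gfra2, and none was called. The smallest Cuffdiff p among them in the authors' deposited table was 0.0257, for Gpatch3. The gene nearest to Gfra1, looked up after the values were seen, was Pvrl3 at 0.905 and 2.09 FPKM, with an implied standard error of 0.50 and no call.

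**Figure D3:**
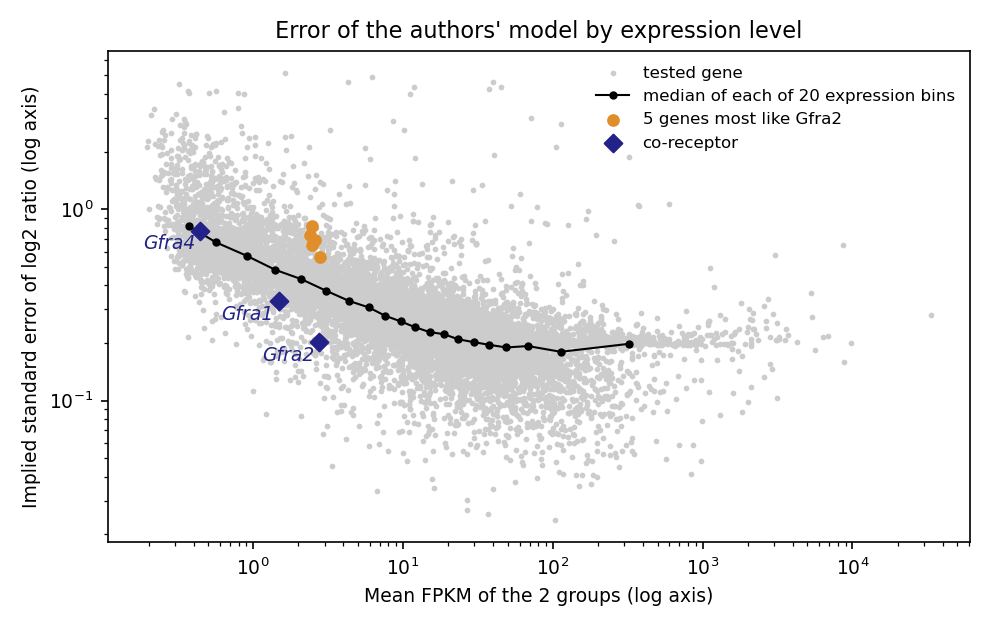
Implied standard error of the log2 ratio (vertical log axis) against mean FPKM (horizontal log axis) for each tested gene, with the median of each of 20 expression bins as a black line, the co-receptors as diamonds and the 5 genes most like Gfra2 in orange. Gfra2 lies at 0.20 and Gfra1 at 0.33, under bin medians of 0.37 and 0.48, while the 5 genes lie between 0.56 and 0.81.

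Ret, the kinase that the co-receptors share (ENSMUSG00000030110, chromosome 6, 118101766 to 118147762 in the table), was listed at 0.0742 and 0.0217 FPKM and is marked as having too few reads to test. The value was higher in the group labelled Tgif1-/-, opposite to Gfra1 and Gfra2, with a deposited p of 0.148 outside the set of tested genes. Of all genes in the table, 30.8% lay at or below the Ret value in the group labelled Tgif1-/- and 25.7% in the group labelled WT. The level of Gfra2 was 20.7 times that of Ret in the group labelled Tgif1-/- and 182 times in the group labelled WT. Both ratios divide by a Ret value near 0 with too few reads to test. No error was computed for them, so no difference between the groups is read from them. In these bulk samples a few cells with much Ret RNA and many cells with little cannot be told apart, and likewise fewer cells with Gfra2 or Gfra1 RNA and less of it per cell.

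The ligands were at or near 0. Nrtn, which encodes neurturin, was listed at 0.0869 and 0.199 FPKM with too few reads to test. Gdnf and Artn were listed at 0 in both groups, as were 21.0% of all genes in the table. Pspn, which encodes persephin and was looked up as the ligand missing from the 8 genes, was tested at 0.538 and 0.302 FPKM and not called (Cuffdiff p = 0.547 in the authors' deposited table).

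Cell surface proteins that can stand in for Ret were present at low levels. Sdc3, a heparan sulfate proteoglycan that binds GDNF family ligands, was at 2.65 and 3.52 FPKM, and Ncam1, a cell adhesion molecule that can act as an alternative GDNF receptor, at 0.519 and 0.595 FPKM. Gas1, a distant relative of the co-receptors, and Gfral, the receptor of GDF15, were listed at 0 in both groups. Of the 6 genes of this list 3 were tested by Cuffdiff, and 0 were called or had an unadjusted p under 0.05.

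The signalling proteins downstream of Ret were mostly at far higher FPKM than Ret, with 19 of 24 at 1 FPKM or more in a group, and none was called by Cuffdiff. Of the 24, 16 were tested, 9 lower and 7 higher in the group labelled Tgif1-/-, with 0 called, 0 at an unadjusted p under 0.05 and a median log2 ratio of -0.01, against -0.03 over all tested genes. The smallest p-values belonged to Grb7, an SH2 adaptor, at 0.605 and 0.131 FPKM and to Dok2, a docking protein of blood cells, at 19.6 and 24.4 FPKM. They were only 0.221 and 0.347 by Cuffdiff, and the log2 ratio of Grb7, 2.20, had an implied standard error of 1.80. Tests had failed for 7 members, among them Plcg1, Grb10 and Pik3ca, which could not be called.

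All 10 negative regulators were tested, 9 of them lower and 1 higher, with a median log2 ratio of -0.11. By Cuffdiff 0 were called and 0 had an unadjusted p under 0.05. Over all tested genes 57.4% were lower. The smallest p-values belonged to Cd2ap, which works with Cbl in taking up receptors, at 16.8 and 20.1 FPKM and to Spry1, an inhibitor of receptor kinase signalling, at 1.90 and 2.09 FPKM. Of 8 transcription factors known to act on the Ret gene 4 were tested by Cuffdiff, with no call and 0 at an unadjusted p under 0.05. Sp1 stood at 109 and 105 FPKM and Hoxb5 at 0.737 and 0.796 FPKM.

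Of 8 genes known to respond to Ret 4 were tested by Cuffdiff and 0 called, and 1 was higher at an unadjusted p under 0.05. This was Bcl2l1, which encodes the survival protein Bcl-xL, at 9.28 and 6.19 FPKM. The authors' deposited table gives it a p of 0.00483 and a q of 0.305. Its relative Bcl2 had the next smallest p, at 35.3 and 42.2 FPKM (Cuffdiff p = 0.176 in the authors' table). The survival genes linked to Ret thus had values in opposite directions, neither of them called. The tests of Etv5 and Myb had failed.

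Among 16 ligands and receptors of other neurotrophic families, 7 were tested, 6 lower and 1 higher, against 57.4% lower over all tested genes. By Cuffdiff 0 were called, and the median log2 ratio was -0.18. The only one at an unadjusted p under 0.05 was Il6st, the shared signalling chain of the CNTF, LIF and interleukin-6 receptors, at 20.5 and 27.5 FPKM. The authors' deposited table gives it a p of 0.0338 and a q of 0.78. Cntf, ciliary neurotrophic factor, stood at 2.31 and 3.55 FPKM. Of 22 other receptor tyrosine kinases 7 were tested by Cuffdiff with no call, 0 had an unadjusted p under 0.05, and the median log2 ratio was -0.31. Tie1, an orphan receptor of endothelial and blood stem cells, stood at 5.23 and 6.49 FPKM and Insr, the insulin receptor, at 22.9 and 26.1 FPKM. Tests failed for 5 members, Kit, Flt3, Csf1r, Axl and Pdgfrb.

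**Figure D4:**
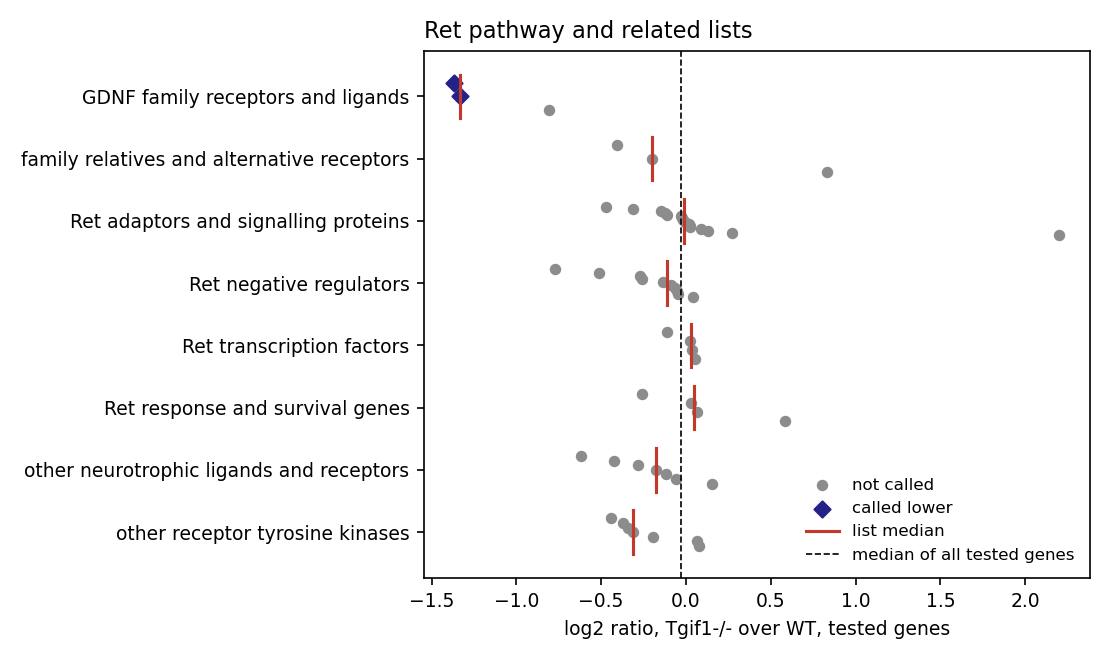
Log2 ratio, Tgif1-/- label over WT label, (horizontal axis) for each tested gene of 8 lists (vertical axis), with the list median as a red bar and the median of all tested genes, -0.03, as a dashed line. The called genes are Gfra2 and Gfra1, and the medians of the other lists lie between -0.31 and 0.05.

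Markers of some other cell types also differed between the groups. As a share of all tested genes, 57.4% were lower in the group labelled Tgif1-/-. Of 10 B lineage markers 8 were tested by Cuffdiff, 7 lower and 1 higher, and 4 were called lower (Ebf1, Igll1, Blnk and Cd79a); their summed level was 70.5 and 141 FPKM and none was at 0. Of 11 neutrophil markers 8 were tested, all 8 lower, with 0 called and 4 at an unadjusted p under 0.05, and a summed level of 3771 and 4161 FPKM. Most of that sum was Mpo, whose test failed, at 3055 and 3289 FPKM, while the 4 differed more, S100a8 at 38.1 and 73.7, Ngp at 3.47 and 8.19, Camp at 2.16 and 3.88 and Ltf at 0.353 and 1.33 FPKM. Of 10 mast cell and basophil markers 9 were tested, all 9 higher, and 4 were called, with a summed level of 396 and 161 FPKM. Of 10 stromal markers 3 were tested and 0 called, with 2 lower at an unadjusted p under 0.05. These were Bgn at 5.93 and 11.9 FPKM and Fn1 at 0.467 and 1.07 FPKM, with Cuffdiff q values of 0.0987 and 0.0912. The other tested one, Lepr, was higher, at 0.770 and 0.726 FPKM. Pdgfrb, the most abundant stromal marker, was also higher, at 18.2 and 15.9 FPKM, but its test failed. Dcn and Lum were listed at 0 in both groups, and Col1a1 at 0.0153 and 0.0271 FPKM had too few reads to test. Summed, the stromal list stood at 25.5 and 29.9 FPKM. The part of these cell types in the lower values of Gfra1 and Gfra2 was not tested.

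Defining markers of the nerve and glial cells in which the family is best known were near 0. Of 11 such markers Th, Dbh and Nefl were among those listed at 0 in both groups, and Sox10 was listed at 0 and 0.0554 FPKM. The list summed to 32.1 and 28.1 FPKM, of which Mbp alone, a myelin gene whose locus is also transcribed in blood cells, gave 30.7 and 26.7 FPKM.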

How the data were processed

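RNA from LSK cells was sequenced in 6 samples, 3 per group, and per the submitters' processing notes TopHat and Cuffdiff were used; their versions are not given. Per the file headers, the authors deposited 1 FPKM value per gene for each group, a log2 fold change (WT over Tgif1-/-, turned round here), a test statistic (a score without fixed range), a p-value and a q-value. The notes name hg19, a human build, while the identifiers are mouse genes, so the build of the table's positions is unknown; starts are printed counting from 1. Each deposited p-value of the 10683 tested genes above 0 FPKM in both groups matched a two-sided normal p of its statistic within 0.001, so the log2 ratio divided by the statistic was taken as the implied standard error. By Cuffdiff status 10730 genes were tested, 8455 had too few reads and 3143 failed. With 1 value per group no own test across samples could be run.

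The members and lists were chosen with earlier results of these data known. Named were the 8 genes, and from each list the called members or, with none called, the 2 tested ones with the smallest p; some list members are not reported here. Where a symbol was listed repeatedly, its most abundant entry was used. Promoter windows came from RefSeq and exons from GENCODE M21 (GRCm38). Alternatives were other q thresholds, minimum folds and minimum FPKM values, pseudocounts, centring, adjustment over all lines, and an error floor from expression bins. The recomputed adjustment was tested on simulated data. The simulated noise was drawn with the implied standard errors themselves, so that test cannot tell whether these errors are too small. Python 3.11.15, pandas 2.3.3, numpy 2.4.6, scipy 1.17.1 and matplotlib 3.10.9 were used.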

Additional observations from a re-analysis of the deposited data

How the results depend on the processing

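The count of 2 co-receptors called lower was 1 at a q threshold of 0.01 (Gfra2). It was 0 with a minimum of 5 FPKM and with the error floor from 20 bins or from 10 bins. The count stayed at 2 under the other alternatives run for it, and no member was called higher in any. The 71 genes called in all became 39 at a q threshold of 0.01, 42 with at least 1.5-fold and 34 with at least 2-fold. They became 46 with a minimum of 5 FPKM and 22 under the error floor from 20 bins. No gene of the 6 pathway lists was called under any alternative. With the floor from 10 bins the adjusted p was 0.233 for Gfra2 and 1.00 for Gfra1, and adjusted over all lines of the table it was 3.2e-08 and 0.0273; the alternatives for Gfra1 were added after seeing the data, and the floor was taken over from an earlier analysis of these data that had added it after seeing them. A pseudocount of 1 FPKM brought the log2 ratio to -0.97 for Gfra2, -0.76 for Gfra1 and -0.24 for Gfra4, and that of Ret from 1.77 to 0.07, with no reversed sign. No replicate could be left out because the table has no values per sample. No paired analysis was possible because the groups share no replicate numbers and the columns carry none. The depth is unknown, so a listing at 0 gives no upper limit.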

Other observations

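Genes beside the called co-receptors, looked up within 500 kb after the values of Gfra1 and Gfra2 were seen, were tested in part, and none of the tested ones was called. Around Gfra2 on chromosome 14, 15 genes were listed and 7 tested, 6 of them lower in the group labelled Tgif1-/-. The share of lower values over all tested genes was 57.4%. By Cuffdiff 0 of the 7 were called and 0 had an unadjusted p under 0.05, with log2 ratios from -0.37 to 0.03. The nearest, 112 kb away in the table, were Xpo7, a nuclear export receptor, at 13.1 and 13.8 FPKM and Dok2, itself a docking protein of Ret, at 19.6 and 24.4 FPKM. Both are listed on the same block of positions. Fgf17, a fibroblast growth factor 248 kb from Gfra2, was listed at 0 and 0.214 FPKM with too few reads to test. Around Gfra1 on chromosome 19, 8 genes were listed and 1 tested, Atrnl1, at 4.75 and 5.05 FPKM and not called. Another 5 were listed at 0 in both groups.

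Etv5, an ETS factor induced by Ret in kidney and germ cells, stood at 29.0 and 45.9 FPKM; its Cuffdiff test failed, which leaves the pair without an error, and the gene was picked after its values were seen.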
